A study of Rattus norvegicus with 6 samples.

Results

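Interleukins are secreted signalling proteins through which leukocytes, epithelium and stroma direct inflammation, and each acts through a receptor built from a small number of shared chains. The genes described here were every row of the expression table whose symbol begins with Il followed directly by a digit, which took in 74 of the 17030 symbols, ligands and receptor chains alike. Each was measured in 6 tumors that the study describes as primary PAIII tumors grown under the skin. PAIII is a prostate adenocarcinoma line of the rat that has been passed from animal to animal in Lobund-Wistar rats, so the host of each tumor was immunologically intact, and all 6 tumors came from this 1 line. The hosts were 2 months old when PAIII cells were injected under the skin of the flank. Rats A1, A6 and A12 (digitoxin replicates 1, 2 and 3) received digitoxin, a cardiac glycoside that inhibits the sodium pump, at 0.03 mg/kg daily into the peritoneum from day 10, rats B5, B9 and B14 (vehicle replicates 1, 2 and 3) received vehicle, and tumors were taken on day 40. Each library came from punches of viable tumor regions of 1 rat. According to the study, the rats sequenced were picked from opposite extremes of serum IL-6 and CINC-1, the drug-treated ones low and the vehicle ones high, so for the interleukin genes the drug and this selection cannot be told apart.

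The family falls into groups by receptor. IL-1 family cytokines (Il1a, Il1b, Il18, Il33 and the Il36 genes) signal through paired receptor chains and the adaptor MyD88 to NF-kB, and Il1rn, Il18bp and the decoy receptor Il1r2 restrain them. IL-6 and its relatives signal through gp130, the product of Il6st, to the kinase Jak1 and the transcription factor Stat3. The IL-10 group (Il10, Il20, Il22, Il24) also acts through Jak kinases and Stat3, the common gamma chain Il2rg serves the lymphocyte growth factors, and IL-17 receptors act on epithelium and draw in neutrophils.

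Several properties of the libraries bear on every value that follows. Levels are FPKM, fragments scaled to transcript length and to the mapped total of the library, and since reads were not analysed here the depth behind them is unknown. A12 and B14, which are 1 digitoxin and 1 vehicle tumor, stood apart from the other 4 libraries and were alike, with a correlation across genes of 0.985 on the log2(FPKM + 1) scale. All 8 of 8 lung alveolar marker genes were lower in A12 and B14 than in the other 4, and their summed level was 17.5 and 25.2 FPKM there against 27099 to 82627 elsewhere (digitoxin range 17.5 to 82627, vehicle range 25.2 to 35384). Sftpc, a surfactant gene that defines alveolar cells, was at 35405, 63514 and 0.229 in A1, A6 and A12 and 19188, 24105 and 0 in B5, B9 and B14. Of the prostate lineage markers reported here, Pbsn and Msmb were listed at 0 in every library, Hoxb13 did not exceed 0.0937 FPKM, and Tmprss2 lay between 7.69 and 34.1, while Krt8, a keratin of simple epithelium, lay between 398 and 2095. Across the 91 mRNAs of the published list of changed genes that could be matched, the ratio of group means correlated with the listed ratio at r = -0.0386 with the groups as labelled and at r = 0.845 with A1 and B9 exchanged, a correlation across genes, which are not independent. Groups are used as labelled, and the counts of interleukin genes called by limma are also given without A1 and B9 and without A12 and B14.

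Il33 was the most abundant interleukin mRNA of these tumors. It encodes an alarmin that is stored in the nucleus of epithelial and stromal cells and is released on damage, and its row lies on chromosome 1 from 255382759 to 255397661 in the positions of the table, whose genome build the sources used here do not give. Its level was 801, 133 and 2256 FPKM in A1, A6 and A12 and 1527, 1301 and 2404 in B5, B9 and B14. It ranked first of the 74 genes in 5 of the libraries and 4th in A6, and in B14 it ranked 22nd of all symbols. Il24, a cytokine of the IL-10 group on chromosome 13 (52707114 to 52712513), followed at 169, 0.913, 557, 522, 399 and 496 FPKM in the same order, ranking second in every library but A6. Together these genes made up 50.9%, 9.29% and 83.7% of the summed interleukin FPKM in A1, A6 and A12 and 69.4%, 64.1% and 80.7% of it in B5, B9 and B14. In A6 the leading genes were instead Il1b at 217 FPKM, Il18 at 183 and Il17ra at 158.

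Many interleukin ligands were at or near 0. Of the 74 genes, 43 were above 0 in all 6 libraries and 11 were listed at 0 in every one, namely the ligands Il2, Il3, Il5, Il9, Il13 and Il17c and the receptor genes Il5ra, Il7r, Il20ra, Il1rapl1 and Il1rapl2. An entry of 0 can be a failed estimate in this table, since the collagen gene Col1a2 was also at 0 throughout while Col1a1 lay between 12.7 and 1665 FPKM. Genes averaging under 1 FPKM across the libraries were left untested, a limit that uses no group, so that 37 genes were tested and 37 were not, of which 26 were above 0 somewhere with no value over 2.34. The classical T-cell cytokines were among these, with Il4 at 0.485 FPKM in A12 and 0 elsewhere, Il21 at 0.545 in B9 and 0 elsewhere, and Il17a at 0.0949 in B14 and 0 elsewhere. The map of levels by library shows the tested genes by family, from the most to the least abundant within each family.

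**Figure D1:**
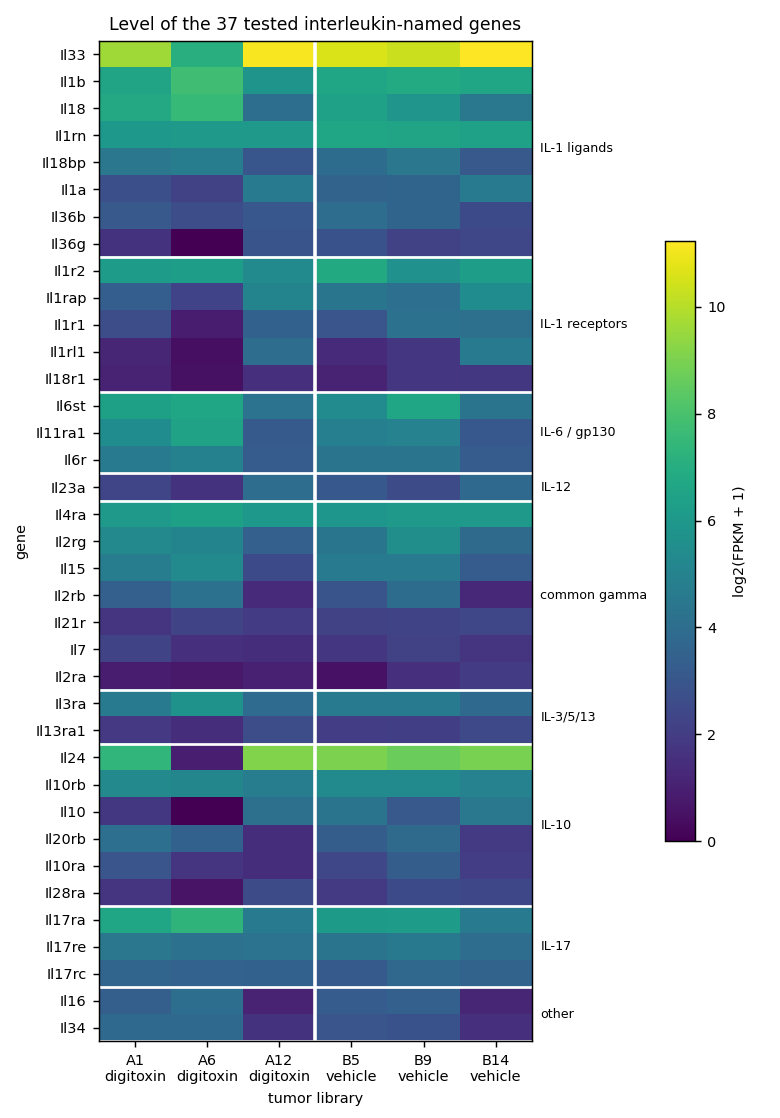
Level map of the 37 interleukin and interleukin receptor genes that averaged 1 FPKM or more, in each of the 6 tumors (color is log2(FPKM + 1)). Rows are grouped by family, and columns are labelled digitoxin or vehicle. Il33 and Il24 exceed the rest in every library but A6, where Il24 is at 0.913 FPKM and Il1b leads at 217.

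Promoter windows are shown for Il6, whose protein in serum was used to pick the rats, for Il24, the second most abundant by mean level, and for Il1rn, whose groups did not overlap. Each is the 250 bases before the transcription start in RefSeq's GRCr8 table, read 5′ to 3′ on the gene's strand, with motif matches in capitals and positions counted backwards from the start (-1 is the last base printed).
Il6, chr4:5894576-5894825, minus strand: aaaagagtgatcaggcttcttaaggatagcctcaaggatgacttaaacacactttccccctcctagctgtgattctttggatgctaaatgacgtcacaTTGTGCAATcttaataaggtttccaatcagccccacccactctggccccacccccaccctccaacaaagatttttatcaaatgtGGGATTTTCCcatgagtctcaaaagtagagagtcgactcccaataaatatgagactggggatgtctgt
Il24, chr13:44910761-44911010, minus strand: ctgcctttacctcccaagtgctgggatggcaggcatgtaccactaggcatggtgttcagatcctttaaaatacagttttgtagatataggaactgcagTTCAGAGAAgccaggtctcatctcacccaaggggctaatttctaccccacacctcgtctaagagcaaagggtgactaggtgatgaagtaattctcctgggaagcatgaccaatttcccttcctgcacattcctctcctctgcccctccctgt
Il1rn, chr3:27520072-27520321, plus strand: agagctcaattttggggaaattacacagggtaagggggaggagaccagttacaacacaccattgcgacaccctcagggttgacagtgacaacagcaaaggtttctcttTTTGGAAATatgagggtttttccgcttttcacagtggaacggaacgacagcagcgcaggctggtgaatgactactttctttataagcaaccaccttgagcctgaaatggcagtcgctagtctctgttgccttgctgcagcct
In Il6 the capitals mark a C/EBP match (-152 to -144) and an NF-kB match (-68 to -59), in Il24 a STAT match (-152 to -144), and in Il1rn a C/EBP match (-142 to -134). The searched letters were TTNNGNAAT for C/EBP, TTCNNNGAA for STAT and TGANTCA for AP-1, with NF-kB by its usual consensus, on both strands. At least 1 window was found for 58 of the 74 genes, 2 of them through an older symbol. An NF-kB match lay in any window of 7 of these genes (12.1%), against 6.33% of all 33469 windows of that length. Here and below, genes are set against single windows. A gene with several windows has more chances of a match, so the shares are not like for like. The C/EBP letters were in 10 of the 58 (17.2%, against 10.9%), AP-1 in 5 (8.62%, against 6.34%) and STAT in 5 (8.62%, against 7.67%). These are matches of letters and not measured binding sites.

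Digitoxin-labelled and vehicle tumors were compared on the log2(FPKM + 1) scale with limma over all 10740 rows that met the minimum, with p-values adjusted over all of them by the method of Benjamini and Hochberg. Here a fold change is digitoxin minus vehicle in log2 units, which understates the change of low genes. No interleukin gene passed an adjusted p of 0.05 (0 of 37, with adjusted p between 0.926 and 0.999 by limma), and nor did any other row (0%). At an unadjusted p of 0.05 limma called 1 of the 37, Il1rn, against 0.335% of all rows tested (0.27% with lower digitoxin levels). The same gene was the only one of the 37 whose groups did not overlap (2.70%, against 4.16% of all rows, 3.26% with digitoxin lower). Mean log2 levels were lower in the digitoxin libraries for 21 of the 37 (56.8%, against 64.9% of all rows) and higher for 16, and the median log2 difference was -0.16, as it was over all rows tested, though with A12 left out these were 0.0070 and -0.23. The genes with a difference below -1 on the log2 scale were Il24, Il10, Il1r1, Il33 and Il1rap (5 of 37, or 13.5%, against 6.36%). Without A6 none of these 5 stayed below -1, with Il24 at -0.61, Il10 at -0.997, Il1r1 at -0.70 and Il33 at -0.32. None of the 37 had a difference above 1 with all 6 libraries (0.996% of all rows). In these bulk samples, fewer cells of a type and less RNA per cell cannot be told apart, and p-values measure the spread between 3 rats per group.

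**Figure D2:**
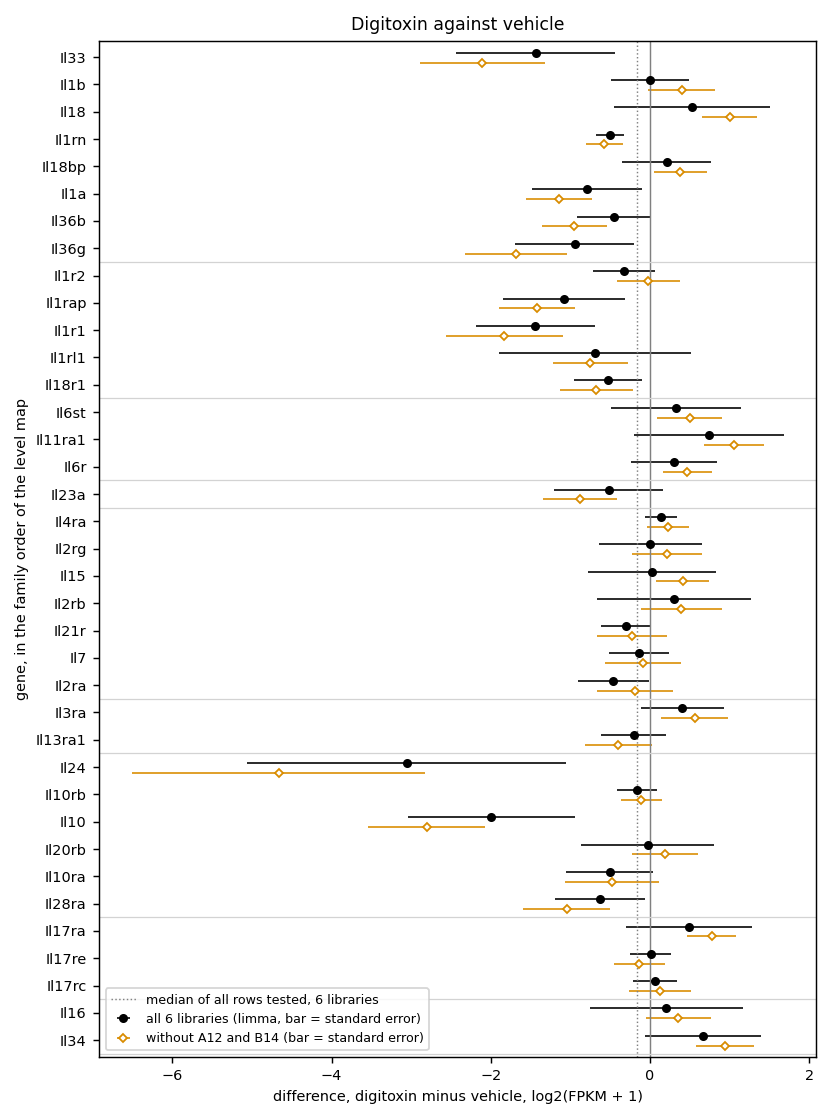
Log2 difference (digitoxin minus vehicle, log2(FPKM + 1) scale) with its standard error from limma for each of the 37 tested genes, grouped by family, with all 6 libraries and without A12 and B14. With all 6 the differences run from -3.05 (Il24) to 0.74 (Il11ra1), and no adjusted p was under 0.926.

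Among IL-1 family ligands and inhibitors 8 of 11 genes were tested, 5 with lower and 3 with higher mean log2 levels in the digitoxin libraries, none past the adjusted threshold. Il1rn encodes the receptor antagonist that occupies the IL-1 receptor without signalling, and its row lies on chromosome 3 from 1456035 to 1461452 in the table's positions. Its level was 63.3, 64.6 and 66.1 FPKM in A1, A6 and A12 and 99.3, 92.0 and 85.4 in B5, B9 and B14. All 3 digitoxin libraries lay below all 3 vehicle libraries, including within the pair A12 and B14, but with the doubted libraries A1 and B9 exchanged the groups would overlap. The means were 64.7 ± 1.40 and 92.3 ± 6.93 FPKM (SD, n = 3), a log2 difference of -0.50 (SE 0.18, adjusted p = 0.926 by limma). With median-of-ratios scaling the groups overlapped and the difference was -0.31, and neither with it nor with the samples blocked by replicate number did Il1rn reach an unadjusted p of 0.05.

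Il1b, a main product of activated myeloid cells, did not follow its antagonist. It was at 92.2, 217 and 55.1 FPKM in A1, A6 and A12 and 100.7, 114 and 95.7 in B5, B9 and B14, so that digitoxin libraries were both the highest and the lowest, and the log2 difference was 0.0037 (SE 0.49). The ratio of Il1rn to Il1b was accordingly 0.687, 0.298 and 1.20 in A1, A6 and A12 and 0.986, 0.808 and 0.893 in B5, B9 and B14, overlapping between groups. A6, where Il1b was highest, also had the highest summed FPKM of 8 neutrophil markers, 63114 against 1408 in A12, where Il1b was lowest (digitoxin range 1408 to 63114, vehicle range 3426 to 33135). S100a8 and S100a9 carried most of that sum, at 34402 and 27959 FPKM in A6, and A6 was highest for 3 of the 8, while Csf3r was at 7.44 there against 18.4 to 29.2 in A1, B5 and B9. The part of neutrophils in the Il1b level was not tested. Il1a, the alarmin form of IL-1, was at 5.70, 3.53 and 23.1 FPKM in A1, A6 and A12 and at 10.8, 11.4 and 24.5 in B5, B9 and B14. Here A12 and B14 lay close together and above all other libraries.

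Il33 itself had means of 1063 ± 1086 FPKM in the digitoxin libraries and 1744 ± 583 in the vehicle ones (SD, n = 3), a log2 difference of -1.44 (SE 0.999, adjusted p = 0.926 by limma). The groups overlapped, since A12 exceeded B5 and B9, and the difference was -0.32 without A6 and -2.36 without A12. Across the 6 libraries the highest level was 18.1 times the lowest. Il18, a cytokine made as an inactive precursor, went the other way among libraries, at 110, 183 and 15.5 FPKM in A1, A6 and A12 and 85.9, 57.6 and 21.4 in B5, B9 and B14 (log2 difference 0.52, SE 0.98). A12 and B14 were the lowest for Il18 and for Il18bp, the secreted protein that binds it, which was at 21.0, 25.0, 7.15, 14.6, 20.7 and 7.88 in the same order. Of the Il36 genes, which encode cytokines of epithelium, Il36b was at 7.77, 5.22, 7.23, 15.4, 11.5 and 4.67 FPKM and Il36g at 2.15, 0, 6.60, 6.03, 3.62 and 4.25.

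All 5 tested IL-1 family receptor genes, of 8 in the table, had lower mean log2 levels in the digitoxin libraries (64.9% of all rows did). None passed the adjusted test. Il1r1, the signalling receptor for IL-1, was at 5.30, 0.803 and 10.2 FPKM in A1, A6 and A12 and 6.83, 17.3 and 16.6 in B5, B9 and B14. A6 was far below the rest and A12 exceeded B5, so the groups overlapped, with a log2 difference of -1.44 (SE 0.74), which was -0.70 without A6 and -2.01 without A12. Il1rap, the accessory chain shared by the IL-1, IL-33 and IL-36 receptors, was at 9.29, 3.78 and 33.0 FPKM in A1, A6 and A12 and at 19.6, 16.2 and 43.6 in B5, B9 and B14. Within each replicate number the digitoxin library was the lower, and the difference was -1.08 (SE 0.77, adjusted p = 0.926 by limma, or 0.638 with the replicate block). That difference is smaller in size without A6 and larger in size without A12. Il1r2, which binds IL-1 without signalling, was at 70.0, 76.8, 40.2, 111, 49.8 and 77.9 FPKM. It exceeded Il1r1 in every library, by a ratio of 95.7 in A6 and of 2.87 to 16.2 in the other 5.

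The receptor chain that is specific for IL-33, Il1rl1 (ST2), was far below its ligand in every library. Its level was 1.34, 0.363 and 15.02 FPKM in A1, A6 and A12 and 1.605, 2.45 and 22.8 in B5, B9 and B14, so that only A12 and B14 exceeded 2.45. The log2 difference between groups was -0.69 (SE 1.21), and it turns positive without A6 or without B14. Il33 exceeded Il1rl1 in FPKM by 597, 365 and 150 times in A1, A6 and A12 and by 951, 530 and 106 times in B5, B9 and B14, the smallest ratios being in A12 and B14. ST2 is carried by mast cells among others, and the mast cell gene Cpa3 was at 0.385 and 0.395 FPKM in A12 and B14 while 8 of 9 mast cell markers were lowest in those libraries, Kit being the exception. Their summed level ran from 43.9 to 87.3 FPKM in the digitoxin libraries and from 53.2 to 281 in the vehicle ones. Of 6 fibroblast markers, 4 were higher in A12 and B14 than in all other libraries. Their sum was 2778 FPKM in A12 and 3927 in B14, against 214 to 834 elsewhere (digitoxin range 214 to 2778, vehicle range 272 to 3927). The part of mast cells or fibroblasts in the Il1rl1 level was not tested.

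**Figure D3:**
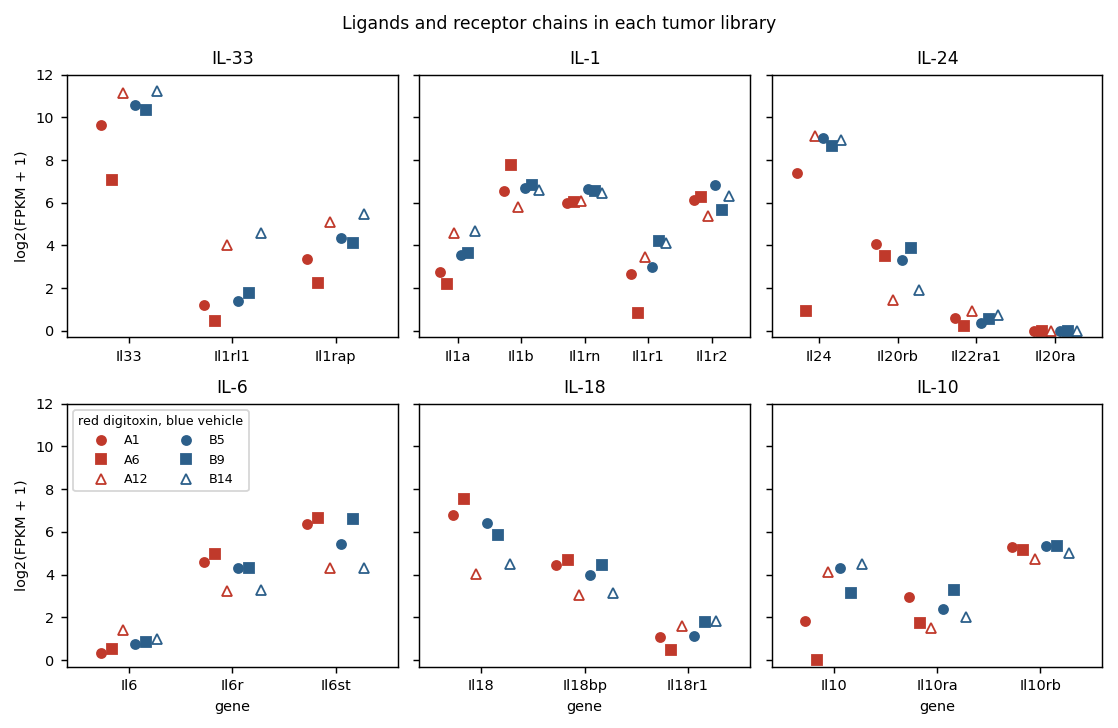
Level of interleukin ligands and the receptor chains that bind them (log2(FPKM + 1)) in each of the 6 tumors, digitoxin in red and vehicle in blue, with open triangles for A12 and B14. Il33 is high in all libraries while Il1rl1 exceeds 2.45 FPKM only in A12 and B14, and Il6 is near 0 where Il6r and Il6st are at 8.54 FPKM or more.

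Il6, which drives the acute phase response and whose serum protein was used in choosing the rats, was scarce in the tumor RNA. On chromosome 4 (3095535 to 3100112 in the table's positions), it was at 0.248, 0.450 and 1.62 FPKM in A1, A6 and A12 and 0.696, 0.788 and 1.01 in B5, B9 and B14. A digitoxin library was highest and the others of its group lowest, with means of 0.773 ± 0.742 and 0.831 ± 0.161 FPKM (SD, n = 3). Its mean was under the minimum, so a single two-sided exact permutation test was used, for which 3 against 3 allows no p below 0.1. The permutation test gave p = 0.8 for a log2 difference of -0.12, which became 0.094 without A1. Il11, a gp130 ligand of stroma, had a mean of 0.903 FPKM.

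The chains through which IL-6 signals were far more abundant than the cytokine. All 3 tested genes of the IL-6 group had higher mean log2 levels in the digitoxin libraries, while 64.9% of all rows had lower ones. Il6st (gp130) was at 83.0, 99.9 and 18.5 FPKM in A1, A6 and A12 and 42.4, 96.7 and 19.0 in B5, B9 and B14. Il6r, the IL-6 binding chain, was at 23.4, 30.1, 8.54, 18.9, 18.9 and 8.73, and Il11ra1, its counterpart for IL-11, at 43.7, 87.8, 8.09, 27.8, 30.9 and 7.45. For each of these A12 and B14 were the lowest libraries and lay close together. The lung alveolar markers were lowest in the same pair of libraries, and their part in it was not tested. The log2 differences were 0.32 (SE 0.82) for Il6st, 0.30 (SE 0.54) for Il6r and 0.74 (SE 0.94) for Il11ra1, all smaller than their standard errors, and those of Il6st and Il6r turned negative without A6. That of Il11ra1 was 0.026 without A6 and 1.67 without A12.

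In the IL-10 group all 6 tested genes of 11 had lower mean log2 levels in the digitoxin libraries (64.9% of all rows did), none past the adjusted test. For Il20rb the difference was only -0.031 (SE 0.84), and its mean FPKM was higher with digitoxin (9.34 against 8.54). For Il10rb it was -0.16 (SE 0.25), the same as the median of all rows. Il24 had means of 243 ± 285 FPKM in the digitoxin and 473 ± 64.8 in the vehicle libraries (SD, n = 3), with a log2 difference of -3.05 (SE 2.002, adjusted p = 0.926 by limma). That difference rested on A6, where Il24 was 610 times below its highest level, and without A6 it was -0.61. The summed FPKM of 5 epithelial markers was also lowest in A6, at 1408 against 2807 to 4817 elsewhere, with A6 lowest for 3 of the 5. The part of epithelial cells in the Il24 level was not tested. A12 had the highest Il24 of all, so the groups overlapped. Of the chains that form IL-24 receptors, Il20rb was at 16.01, 10.3 and 1.73 FPKM in A1, A6 and A12 and at 9.04, 13.8 and 2.75 in B5, B9 and B14, Il22ra1 did not exceed 0.880, and Il20ra was listed at 0 throughout. The ratio of Il24 to Il20rb thus ran from 0.0888 in A6 to 322 in A12.

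Il10, an anti-inflammatory cytokine of macrophages and lymphocytes, was at 2.54, 0 and 16.7 FPKM in A1, A6 and A12 and 18.8, 7.76 and 21.7 in B5, B9 and B14. Only A12 of the digitoxin libraries reached into the vehicle range, and within each replicate number the digitoxin library was the lower. The log2 difference was -1.99 (SE 1.05, adjusted p = 0.926 by limma), running from -3.07 without A12 to -0.997 without A6, and with the replicate block the adjusted p was 0.638. Il10ra, the ligand-binding chain of its receptor, which also appears in the published list of changed genes and so is not independent of it, was at 6.86, 2.36 and 1.79 FPKM in A1, A6 and A12 and at 4.20, 8.85 and 3.11 in B5, B9 and B14 (log2 difference -0.51, SE 0.55, running from -0.96 without A1 to -0.14 without B9). Il10rb, shared with the IL-22 and interferon lambda receptors, lay between 25.3 and 39.4 in all libraries. Il28ra, the interferon lambda receptor chain, was at 2.35, 0.518, 5.18, 2.75, 4.78 and 4.35 FPKM.

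**Figure D4:**
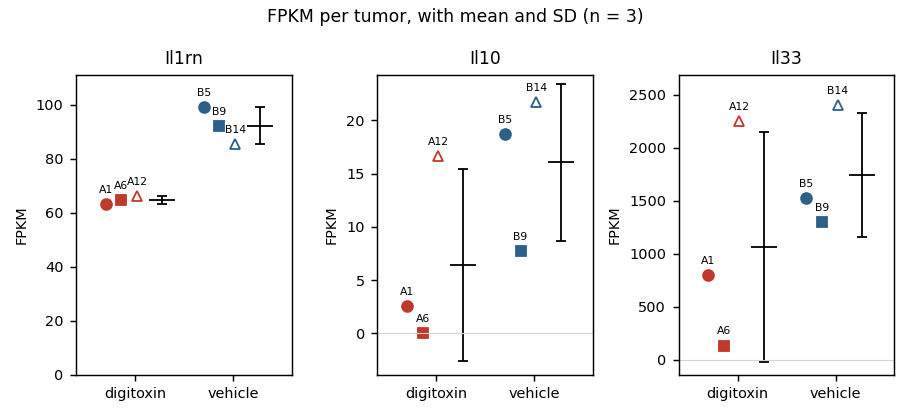
FPKM of Il1rn, Il10 and Il33 in each tumor with the group mean and SD (n = 3 per group), digitoxin in red and vehicle in blue. Il1rn lies at 63.3 to 66.1 in the digitoxin and 85.4 to 99.3 in the vehicle libraries, while for Il10 and Il33 A12 lies within the vehicle range and A6 is lowest.

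The lymphocyte growth factor group had 7 of 13 genes tested, 3 with lower and 4 with higher mean log2 levels in the digitoxin libraries. Il2rg, the common gamma chain, was at 37.7, 32.6 and 9.89 FPKM in A1, A6 and A12 and at 19.3, 46.6 and 13.6 in B5, B9 and B14. Il2rb, which IL-2 and IL-15 share, was at 10.04, 17.7, 1.61, 6.53, 14.9 and 1.41, and Il15, which sustains NK cells, at 24.9, 40.6, 4.78, 22.8, 24.7 and 8.62. For all 3 of these genes A12 and B14 were the lowest libraries. The same held for 8 of 10 T and NK cell markers, whose summed level was 25.5 and 49.6 FPKM in A12 and B14 against 112 to 188 elsewhere (digitoxin range 25.5 to 188, vehicle range 49.6 to 188), and their part in it was not tested. Il4ra, a chain of both IL-4 receptor types, varied 1.39-fold across the libraries, from 58.9 FPKM in B5 to 82.1 in A6 (log2 difference 0.13, SE 0.20). Il7r was listed at 0 throughout while Il7, its ligand, lay between 1.76 and 3.90.

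Among the IL-12 genes 1 of 5 was tested. Il23a, the subunit particular to IL-23, was at 4.01, 2.09 and 15.2 FPKM in A1, A6 and A12 and at 7.45, 5.20 and 13.1 in B5, B9 and B14, but Il12b, the partner it needs for secretion, was at 0.217 in B9 and 0 elsewhere. Il12a, under the minimum, was at 0.229, 0.249 and 0.222 in the digitoxin and at 1.05, 1.44 and 0.584 in the vehicle libraries. These groups do not overlap, as was so for 4.06% of all rows with no minimum, but with A1 and B9 exchanged they would. Il12a was picked out after its values were seen, and it had no test with the minimum in place.

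The IL-17 ligands were scarce while 3 of their receptor chains were above 8 FPKM in every library. Il17a, Il17c and Il17f did not exceed 0.346 FPKM in any library, Il17b reached 0.709 and Il25 reached 1.37. Il17ra, the chain common to IL-17 receptors, was at 94.9, 158 and 22.9 FPKM in A1, A6 and A12 and 69.3, 72.8 and 24.3 in B5, B9 and B14. It was again lowest in A12 and B14. Its log2 difference was 0.49 (SE 0.79), which turns negative without A6 or without B14. Its partners Il17rc (8.09 to 12.4 FPKM) and Il17re (15.002 to 22.6) varied little among the libraries, with log2 differences of 0.063 (SE 0.28) and 0.0070 (SE 0.26).

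Of the IL-3, IL-5 and IL-13 genes, the ligands were listed at 0, whereas Il3ra, the IL-3 receptor alpha chain, was at 23.8, 54.0 and 14.2 FPKM in A1, A6 and A12 and at 23.7, 24.4 and 13.3 in B5, B9 and B14 (log2 difference 0.40, SE 0.52). Il13ra1, a chain for IL-4 and IL-13, lay between 1.79 and 5.25. Outside these families, Il34, a ligand of the macrophage receptor Csf1r, was at 13.2, 13.1, 2.17, 6.76, 6.003 and 1.89 FPKM (log2 difference 0.67, SE 0.73, running from 0.22 without B14 to 1.39 without A12). Il16, a T-cell attractant, was at 9.44, 15.9, 1.14, 8.77, 9.99 and 1.30. Both were lowest in A12 and B14.

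A12 and B14 both lay below the other 4 for 14 of the 37 tested genes (37.8%, against 29.3% of all rows tested). They lay above them for 6 (16.2%, against 30.1%), namely Il33, Il1a, Il1rap, Il1rl1, Il23a and Il13ra1. Between A12 and B14 every one of the 37 differed by less than 1 on the log2 scale, as did 98.04% of all rows, with a median of -0.10 for A12 minus B14. A6 was the lowest library for 12 of the 37 (32.4%, against 50.5%) and the highest for 12 (32.4%, against 23.9%).

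Without A12 and B14 no interleukin gene passed the adjusted threshold either (smallest adjusted p 0.391 by limma; 0.0186% of all rows passed). At an unadjusted p of 0.05 limma then called 12 of 37 (32.4%), against 11.1% of all rows. Lower in A1 and A6 than in B5 and B9 were 8 genes (21.6%, against 7.18%), namely Il24 (-4.66 on the log2 scale), Il10 (-2.81), Il33 (-2.11), Il1r1 (-1.83), Il36g (-1.68), Il1rap (-1.42), Il1a (-1.14) and Il1rn (-0.57). Higher were 4 genes (10.8%, against 3.87%), namely Il11ra1 (1.06), Il18 (1.00), Il34 (0.94) and Il17ra (0.78). These differences rest on A1 and B9 as labelled. With that pair exchanged, a description chosen after seeing the data and not tested, all 12 were smaller in size and 11 kept their sign, Il24 going to -3.43, Il1r1 to -0.29, Il18 to 0.078 and Il34 to -0.077. Without A1 and B9, the libraries whose labels are in doubt, limma called 0 of 37 at an unadjusted p of 0.05 (0.102% of all rows), and 0 after adjustment. Leaving out A12 alone, limma called 12 of 37, against 19.7% of all rows. With samples blocked by replicate number it called 2, Il10 and Il1rap (5.41%, against 4.15%). With the mean log2 level of the lung alveolar markers as a covariate it called 3, Il10, Il1rap and Il1rn (8.11%, against 3.51%).

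The machinery downstream of these receptors was examined through a list of 48 genes (other gp130 cytokines and receptors, Jak kinases, Stat factors, Socs inhibitors and the MyD88 branch), of which 44 were tested. Of these, 30 had lower mean log2 levels in the digitoxin libraries (68.2%, against 64.9% of all rows) and 14 higher, with a median log2 difference of -0.09 against -0.16 over all rows. Limma called 0 after adjustment (0% of all rows) and 0 at an unadjusted p of 0.05 (0.335%), and without A12 and B14 it called 5 of the 44 unadjusted (11.4%, against 11.1%). The groups did not overlap for Jak2 and Crlf2 (4.55%, against 4.16% of all rows), and for both they would overlap with A1 and B9 exchanged. Jak2, a kinase of cytokine receptors, was at 13.9, 5.42 and 16.9 FPKM in A1, A6 and A12 and at 17.8, 21.6 and 21.2 in B5, B9 and B14. Crlf2, the receptor chain for TSLP, was at 39.8, 63.3 and 36.3 in the digitoxin and at 35.6, 33.7 and 34.7 in the vehicle libraries. Stat3, the main factor downstream of gp130, was at 58.9, 56.2, 57.6, 52.9, 67.3 and 63.7 FPKM, and Socs3, its feedback inhibitor, at 54.5, 26.7, 93.8, 58.5, 73.8 and 73.3. Neither separated the groups. Csf2rb, the beta chain that Il3ra pairs with, was at 10.3, 1.82, 12.9, 11.9, 16.8 and 24.5 FPKM.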

How the data were processed

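RNA from punches of 6 tumors was sequenced as single reads after poly(A) selection, with a kit that does not mark strand. The authors deposited FPKM per transcript row, made with Bowtie 2, TopHat 2 and Cufflinks. The submitters' processing notes name hg19, a human build, while the positions are on rat chromosomes, so the build used is not given in the sources used here. FPKM carry no depth, and steps between low values recovered no whole reads, so precision is unknown.

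The table held 17557 rows, 17030 symbols and 467 symbols on several rows, of which the row with the highest mean was used, and 25 rows had symbols turned into dates. No scaling was added. The 10740 rows averaging 1 FPKM or more were fitted with limma 3.58.1 in R 4.3.3 (lmFit, eBayes with a trend) on log2(FPKM + 1), two-sided, with Benjamini-Hochberg adjustment. Il6 was tested by exact permutation in Python 3.11.15 with numpy 2.4.6. The fit was tried on simulated data with the spread of the real rows. After adjustment it called 55 of 200 rows changed by 2 log2 units and 156 of 200 changed by 4, with 8 unchanged rows called each time. An absence of calls here therefore does not exclude changes of such size. Any tested member could be named with its values, and full statistics went to the 4 with the highest and the 4 with the lowest moderated statistic, the 5 most abundant, Il6, Il6r, Il6st and Il10ra. Statistics of other members, Il1rap among them, were added after their values were seen. Members and lists were chosen with earlier results of these data known. Alternatives were a pseudocount of 0.1, no minimum, median-of-ratios scaling, no trend, a replicate block, a lung covariate and leaving out libraries. Replicate numbers are shared between groups, although no label ties them to a shared day or batch. Deviations of same-numbered libraries from their group means correlated at 0.430, 0.607 and 0.869, but differently numbered libraries were not compared in this way. By level, A12 was closest to B14 (r = 0.985). A1 was as close to B9 (0.963) as to B5 (0.960), and A6 as close to B5 (0.859) as to B9 (0.856). The values thus do not show a pairing by number. The fit with a replicate block is given only as an alternative, where it changes a call or count. Some genes of the marker and pathway lists are not reported here by name.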

Additional observations from a re-analysis of the deposited data

How the results depend on the processing

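No interleukin gene passed an adjusted p of 0.05 in limma under any alternative run. The number at an unadjusted p of 0.05, 1 of 37, became 3 of 63 with no minimum level (Il12a, Il1rn and Il36rn; 0.906% of all rows), 0 with median-of-ratios scaling (0.354%), 0 without a trend (0.438%), 2 with the replicate block, 3 with the lung alveolar covariate, 12 without both A12 and B14, 0 without both A1 and B9, and 0 to 12 with 1 library left out, the 12 being without A12. The replicate block moved the adjusted call of no gene. Scaling by median of ratios shifted the median of all rows by 0.18, and the median of the tested members went from -0.16 to 0.0043, against 0.016 for all rows. With 1 library left out that median ran from -0.34 (without A1, all rows -0.23) to 0.0070 (without A12, all rows -0.23), and without A6 it was -0.23 against -0.080. The number of genes whose groups did not overlap, 1, became 0 with that scaling (4.60% of all rows), 2 of 63 with no minimum (4.06%), and 3 to 20 with 1 library left out, where 3 against 2 libraries separate more often (20 of 37, or 54.1%, against 51.0% of all rows without A12, and 5.10% to 13.3% of all rows without another library), 3 checks chosen after seeing the data. The Il6 difference of -0.12 ran from -0.44 to 0.094 with 1 library left out, turning positive without A1, and was -0.42 with a pseudocount of 0.1 FPKM. Among the genes planned for full statistics, signs also turned for Il18 without A6 or B14 (-0.035, in a range of -0.18 to 1.56 with 1 library left out). That of Il1b turned with the covariate (-0.036) and without A6, B5 or B14 (-0.013 and -0.050, in a range of -0.53 to 0.45). That of Il3ra turned without A6 (-0.097 to 0.83). Those of Il6r and Il6st turned without A6 or B14 (-0.039, in a range of -0.041 to 0.81, and -0.12, in a range of -0.25 to 1.07). Il1rl1 and Il17ra, outside that set, turned as given above. The cause was not tested for any of these. Depth is unknown, so values under 1 FPKM have no known precision.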
